A study of Mus musculus with 4 samples.

Results

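The Notch pathway genes described here are 10 of the 38713 genes measured by RNA sequencing in cultured tumor cells. They were taken from the deposited expression table by symbol and are the 4 receptors Notch1, Notch2, Notch3 and Notch4, the ligands Jag1, Jag2 and Dll1, and the target genes Hes1, Hey1 and Heyl. RNA came from 4 mammary tumor cell lines of C57BL/6 mice, derived independently and each giving 1 library. JNK_WT lines (genotype p53-/-, lines 1 and 2) came from Wap-Cre mice with floxed Trp53. JNK_KO lines (genotype p53-/- JNK-/-, lines 1 and 3) came from Wap-Cre mice with floxed Trp53, Mapk8 and Mapk9, where Mapk8 and Mapk9 encode the kinases JNK1 and JNK2. Loss of Trp53 was therefore shared by both groups. Wap-Cre is induced in the mammary epithelium at lactation and is active in luminal cells. The cells had been passaged on plastic in serum after dispersal of the tumors, and the ages of the mice were not given in the labels.

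Notch receptors are cell surface proteins that are activated by Jagged and Delta-like ligands on a neighbouring cell. Ligand binding exposes the receptor to the protease ADAM10 and then to the gamma-secretase complex, which frees an intracellular domain. This domain enters the nucleus, joins the DNA-binding protein RBPJ and Mastermind coactivators, and switches on genes of the Hes and Hey families, which encode transcriptional repressors. In the mammary gland the pathway is known for its part in luminal fate, and it is often altered in breast tumors.

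RefSeq start site sequence (GRCm38.p6) was matched for 7 of the 10 genes, and 3 receptor promoters are shown because Notch2 was the receptor whose genotype groups did not overlap at a level over 1 FPKM (fragments per kilobase of exon, scaled to the depth of the library), Notch3 varied most between lines among the receptors and Notch1 was the other receptor present in every line. Each reads 5′ to 3′ on the strand of the gene and covers the 250 bases before the RefSeq start site, less any base in a GENCODE exon of that gene. The Notch1 stretch lies within the longer GENCODE gene, which begins further upstream. Capitals mark the letters CACNAG on either strand, the N-box form that HES repressors are known to bind.

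Notch1, chr2:26503825-26504072, minus strand: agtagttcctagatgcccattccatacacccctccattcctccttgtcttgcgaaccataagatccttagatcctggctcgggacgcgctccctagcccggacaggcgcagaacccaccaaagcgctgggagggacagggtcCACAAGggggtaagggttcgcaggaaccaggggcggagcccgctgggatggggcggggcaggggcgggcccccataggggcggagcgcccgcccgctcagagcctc

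Notch2, chr3:98013288-98013526, plus strand: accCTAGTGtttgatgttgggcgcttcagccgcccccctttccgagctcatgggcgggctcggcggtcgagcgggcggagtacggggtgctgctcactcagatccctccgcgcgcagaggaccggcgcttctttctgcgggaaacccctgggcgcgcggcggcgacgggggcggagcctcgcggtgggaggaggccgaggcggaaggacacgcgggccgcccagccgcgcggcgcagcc

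Notch3, chr17:32166891-32167140, minus strand: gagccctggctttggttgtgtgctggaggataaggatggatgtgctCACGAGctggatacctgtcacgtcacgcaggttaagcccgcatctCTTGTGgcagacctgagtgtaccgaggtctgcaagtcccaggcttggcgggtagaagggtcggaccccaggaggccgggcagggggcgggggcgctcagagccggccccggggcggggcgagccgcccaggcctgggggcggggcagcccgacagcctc

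The marked runs begin at position -108 for Notch1, -247 for Notch2 and -204 and -159 for Notch3, counted from the RefSeq start site. Over windows of 300 bases (250 before and 50 after the start site), the N-box letters were found in 4 of 8 windows of these genes (Notch1, Notch2, Notch3 and a window of Dll1) and in 42.5% of all 32851 windows. All 8 windows belong to receptor and ligand genes, since the target genes Hes1, Hey1 and Heyl were not matched and not searched. The RBPJ core TGGGAA, searched on both strands, was in 0 of the 8 windows and in 25.6% of all windows. Its longer form GTGGGAA, which contains the core, was in 0 of 8 and in 6.38%. The E-box CACGTG, which HEY factors are known to bind, was in 0 of 8 and in 7.15%. A match to these letters is a description of the sequence and is not a measurement of binding.

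The libraries were first checked against their labels. Mapk8 was at 23.9 and 19.1 FPKM in JNK_WT lines 1 and 2 and at 4.30 and 4.27 FPKM in JNK_KO lines 1 and 3, and Mapk9 was at 29.7 and 24.3 FPKM against 12.6 and 8.66 FPKM, so both were lower in each JNK_KO line and neither was at 0. For Trp53, which every line lacks by genotype, residual values were 1.55 and 4.15 FPKM (JNK_WT) and 5.72 and 4.28 FPKM (JNK_KO).

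Markers of cell types were then examined. The 8 luminal markers summed to 2091 to 3061 FPKM in JNK_WT and 927 to 1798 FPKM in JNK_KO lines, mostly from Krt8, Krt18 and Epcam. Kit and Elf5, of luminal progenitors, were under 1 FPKM in JNK_WT line 1 and JNK_KO line 1. Gata3, a luminal transcription factor, was at 1.79 and 1.18 FPKM in JNK_WT lines and at 31.6 and 38.6 FPKM in JNK_KO lines, whereas Krt8 and Epcam were lower in both JNK_KO lines. The 8 basal markers separated the lines in another manner. They summed to 26.1 and 734 FPKM in JNK_WT lines 1 and 2 and to 38.3 and 376 FPKM in JNK_KO lines 1 and 3. The 8 fibroblast and mesenchymal markers summed to 275 to 815 FPKM in JNK_WT and 520 to 916 FPKM in JNK_KO lines, mostly from Fn1 and Vim, whose groups overlapped, with Lum at 0 in 3 of the 4 libraries and Col1a1 under 1 FPKM in all. Groups did not overlap for 3 of the 8, all with higher values in JNK_KO cells. Over all genes with at least 1 FPKM in at least 2 libraries, this share was 35.0% in either direction and 18.3% in this direction. All 3 markers were under 1 FPKM in both JNK_WT lines, and Thy1 reached 1 FPKM in JNK_KO line 3 only. Dcn, a matrix proteoglycan gene, was at 0.430 and 0.389 FPKM in JNK_WT lines and at 79.7 and 162 FPKM in JNK_KO lines, Pdgfra was at 0.325 and 0.183 FPKM against 24.7 and 7.82 FPKM, and Thy1 was at 0.0861 and 0.0722 FPKM against 0.540 and 1.19 FPKM. All 8 endothelial markers were under 1 FPKM in every line, with sums from 0.900 to 1.66 FPKM. The 7 pericyte markers summed to 4.90 to 5.66 FPKM in JNK_WT and 3.74 to 5.64 FPKM in JNK_KO lines. Within them Pdgfrb was at 0.0404 and 0.194 FPKM in JNK_WT lines against 2.17 and 2.99 FPKM in JNK_KO lines, Mcam was at 5.40 and 4.56 FPKM against 1.10 and 1.39 FPKM, and the other 5 were under 1 FPKM in every line. The 7 leukocyte markers summed to 3.67 to 21.9 and 3.06 to 9.76 FPKM. The part of the markers that moved with genotype in the Notch values was not tested.

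The genotypes were compared with limma on log2(FPKM + 1), fitted over the 12998 genes with at least 1 FPKM in at least 2 libraries. Calls needed an adjusted p-value under 0.05 and an absolute log2 difference over 0.75. Of the 10 Notch genes 8 passed the filter, and Notch4 and Heyl did not. None of the 8 was called (0 genes, with 0 at an unadjusted limma p-value under 0.05), as was the case for all genes tested (0%, with 7.63% at an unadjusted p-value under 0.05). The smallest limma adjusted p-value among the 8 genes was 0.812. A total of 5 differences were positive, that is, higher in JNK_KO cells, and 3 were negative, with a median of 0.26 beside 0.01 over all genes tested. The difference was beyond 0.75 in either direction for 2 of 8 genes (Hes1 and Hey1), beside 15.7% of all genes tested. Groups did not overlap for 2 of 8 genes (Notch2 and Hey1, both higher in JNK_KO cells), beside 35.0% of all genes tested in either direction and 18.3% in this direction. Hey1 enters these counts only through its JNK_KO lines, as it was under 1 FPKM in both JNK_WT lines. With 2 lines against 2, an exact permutation test of a single gene cannot give a p-value under 0.333.

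**Figure D1:**
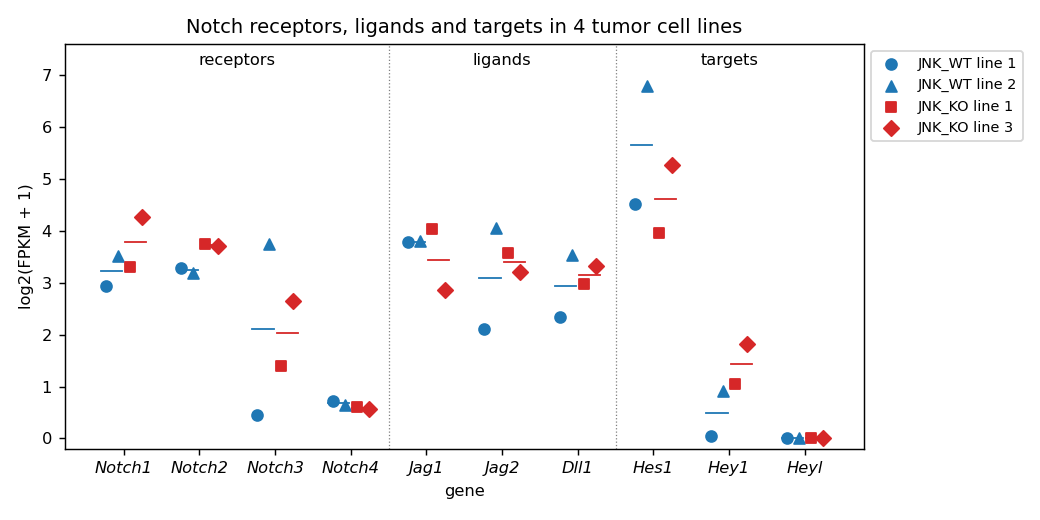
Expression of the 10 Notch genes, as log2(FPKM + 1), in each of the 4 lines (points), with the mean of each genotype as a short line (blue, JNK_WT, n = 2, and red, JNK_KO, n = 2). Notch2 is close within each genotype, whereas the JNK_WT lines are far apart for Notch3 (0.366 and 12.5 FPKM) and Hes1 (21.9 and 110 FPKM).

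Notch1 and Notch2 were the receptors expressed in all lines. Notch1 (mm10 chromosome 2, 26457903 to 26516663, minus strand), the most studied receptor of the family, was at 6.63 and 10.4 FPKM in JNK_WT lines 1 and 2 and at 8.91 and 18.2 FPKM in JNK_KO lines 1 and 3. JNK_KO line 3 was the highest, and JNK_KO line 1 lay between the JNK_WT lines, so the groups overlapped. Group means were 8.51 ± 2.66 and 13.6 ± 6.60 FPKM (SD, n = 2 each). The log2 difference was 0.57 (SE 0.46, 95% interval -0.66 to 1.79) with a limma adjusted p-value of 0.940. It was 0.09 without JNK_KO line 3, 0.28 without JNK_WT line 1, 0.86 without JNK_WT line 2 and 1.05 without JNK_KO line 1.

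Notch2 (chromosome 3, 98013527 to 98150361, plus strand) was the steadiest of the tested genes. It was at 8.79 and 8.08 FPKM in JNK_WT lines and at 12.3 and 12.1 FPKM in JNK_KO lines. Both JNK_KO lines thus lay above both JNK_WT lines, and lines of the same genotype differed by 1.09 and 1.02 times. Group means were 8.44 ± 0.499 and 12.2 ± 0.186 FPKM (SD, n = 2 each), a ratio of 1.45. The log2 difference of 0.49 (SE 0.27, 95% interval -0.23 to 1.20) was not significant over all genes (limma adjusted p-value 0.839). This SE is wider than the Notch2 lines alone would give, since limma draws the variance toward that of genes of similar level. The difference stayed between 0.43 and 0.54 when any 1 line was left out. Under the other settings it was between 0.41 and 0.53, with limma adjusted p-values of 0.658 to 0.971. As these are bulk libraries, more cells that express a gene and more RNA per cell cannot be told apart.

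Notch3 (chromosome 17, 32120820 to 32166852, minus strand), a receptor best known from smooth muscle and from a subset of mammary luminal progenitors, differed most between lines among the receptors. It was at 0.366 and 12.5 FPKM in JNK_WT lines 1 and 2 and at 1.64 and 5.30 FPKM in JNK_KO lines 1 and 3. The JNK_WT lines held both the lowest and the highest value, a ratio of 34.0, and the JNK_KO lines lay between them. The log2 difference between genotypes was -0.07 (SE 1.22, 95% interval -3.31 to 3.16, limma adjusted p-value 0.999). It had no stable direction, since it was 1.58 without JNK_WT line 2, 0.55 without JNK_KO line 1 -0.70 without JNK_KO line 3 and -1.72 without JNK_WT line 1, and it was 0.34 with a pseudocount of 0.1 and 0.0716 with 0.5.

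Notch4 (chromosome 17, 34564268 to 34588503, plus strand), a receptor known from endothelium, was low in every line. It was at 0.655 and 0.568 FPKM in JNK_WT lines and at 0.514 and 0.482 FPKM in JNK_KO lines, which corresponds to an estimated 174 to 246 reads per library. The groups did not overlap, with lower values in JNK_KO cells, and the difference of -0.11 on the log2 scale was not tested. The endothelial markers, which were all under 1 FPKM, summed to 1.03 and 1.16 FPKM in JNK_WT lines and to 1.66 and 0.900 FPKM in JNK_KO lines.

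FPKM are scaled by length, so levels of the receptors can be set beside each other within a line. Notch1 to Notch4 summed to 16.4 and 31.5 FPKM in JNK_WT lines 1 and 2 and to 23.4 and 36.1 FPKM in JNK_KO lines 1 and 3. Notch2 held the largest share in JNK_WT line 1 (53.5%) and JNK_KO line 1 (52.7%), Notch3 in JNK_WT line 2 (39.6%) and Notch1 in JNK_KO line 3 (50.5%). The leading receptor therefore differed between lines of the same genotype. The share of Notch3 was 2.23% and 39.6% in JNK_WT lines and 7.01% and 14.7% in JNK_KO lines. Notch4 held 1.33% to 3.98%.

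**Figure D2:**
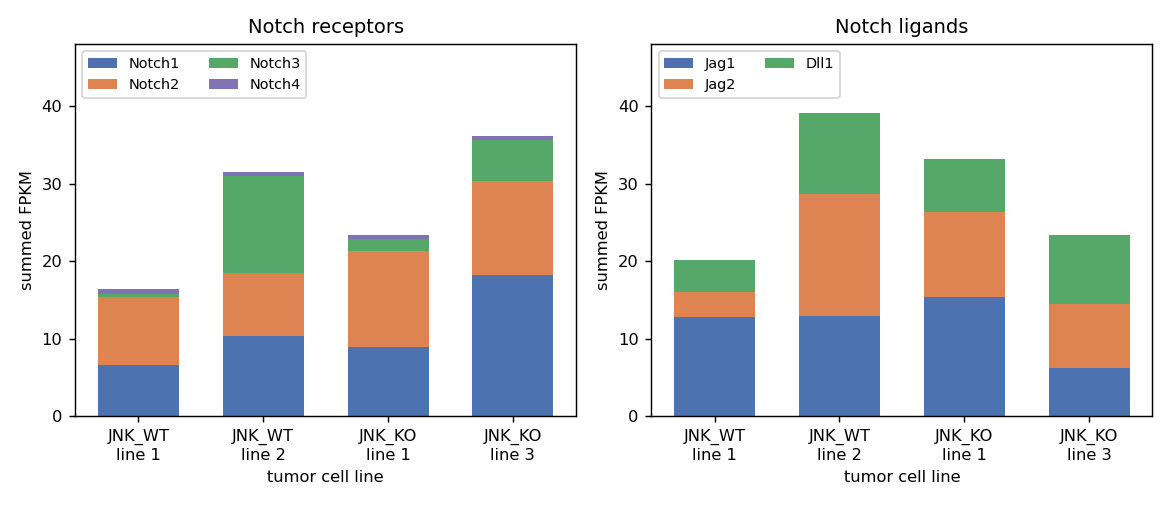
Summed FPKM of the 4 Notch receptors (left) and of the ligands Jag1, Jag2 and Dll1 (right) in each tumor cell line, with the part of each gene in colour. Receptor sums run from 16.4 FPKM in JNK_WT line 1 to 36.1 FPKM in JNK_KO line 3, and ligand sums from 20.1 FPKM in JNK_WT line 1 to 39.1 FPKM in JNK_WT line 2.

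All 3 ligands were expressed in all 4 lines, and in none did the genotype groups separate. Jag1 (chromosome 2, 137081456 to 137116644, minus strand), a Jagged ligand, was at 12.8 and 12.9 FPKM in JNK_WT lines and at 15.4 and 6.24 FPKM in JNK_KO lines 1 and 3. Here the JNK_WT lines were alike and the JNK_KO lines lay on either side of them. The log2 difference was -0.35 (SE 0.47, 95% interval -1.61 to 0.91, limma adjusted p-value 0.995), and it became 0.24 without JNK_KO line 3 and -0.94 without JNK_KO line 1.

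Jag2 (chromosome 12, 112907819 to 112929776, minus strand), the second Jagged ligand, was at 3.32 and 15.7 FPKM in JNK_WT lines 1 and 2 and at 11.0 and 8.25 FPKM in JNK_KO lines 1 and 3. Dll1 (chromosome 17, 15367354 to 15376872, minus strand), a Delta-like ligand described in mammary stem cells, was at 4.04 and 10.5 FPKM in JNK_WT lines and at 6.83 and 8.94 FPKM in JNK_KO lines. For both ligands the JNK_WT lines were the extremes and enclosed the JNK_KO lines. The log2 differences were 0.31 for Jag2 (SE 0.72, 95% interval -1.60 to 2.22) and 0.21 for Dll1 (SE 0.50, 95% interval -1.12 to 1.54), with a limma adjusted p-value of 0.999 for each. Without JNK_WT line 1 they became -0.67 and -0.38, and without JNK_WT line 2 they became 1.28 and 0.81. The median difference of the 430 tested genes of chromosome 12 was -0.41, opposite in sign to the difference of Jag2. For the chromosomes of the other tested Notch genes, such medians lay between -0.0547 and 0.119.

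Jag1 led the ligands in JNK_WT line 1 (63.4% of their summed FPKM) and JNK_KO line 1 (46.3%), Jag2 in JNK_WT line 2 (40.1%) and Dll1 in JNK_KO line 3 (38.2%). Jag1 stood at 3.84 times Jag2 in JNK_WT line 1 and at 1.40 times in JNK_KO line 1, and at 0.824 and 0.756 times in JNK_WT line 2 and JNK_KO line 3. As with the receptors, lines numbered 1 of either genotype had the same leading gene, although the labels do not tie these lines to each other.

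Hes1 (chromosome 16, 30064384 to 30067796, plus strand), a repressor gene and the classical Notch target, was the most abundant of the 10 genes in JNK_WT line 1, JNK_WT line 2 and JNK_KO line 3. It was at 21.9 and 110 FPKM in JNK_WT lines 1 and 2 and at 14.5 and 37.7 FPKM in JNK_KO lines 1 and 3. JNK_WT line 2 was far above the other lines, and the groups overlapped. Means of 65.8 ± 62.1 and 26.1 ± 16.4 FPKM (SD, n = 2 each) gave a log2 difference of -1.04 (SE 0.91, 95% interval -3.45 to 1.37, limma adjusted p-value 0.955). It was 0.10 without JNK_WT line 2, -0.38 without JNK_KO line 1, -1.70 without JNK_KO line 3 and -2.18 without JNK_WT line 1.

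Hey1 (chromosome 3, 8663359 to 8667256, minus strand), which encodes a related repressor, was low. It was at 0.0374 and 0.894 FPKM in JNK_WT lines 1 and 2 and at 1.07 and 2.52 FPKM in JNK_KO lines 1 and 3. Both JNK_KO lines lay above both JNK_WT lines, but JNK_KO line 1 and JNK_WT line 2 were close, with an estimated 146 and 157 reads. In JNK_WT line 1 the value rested on an estimated 5.50 reads. The log2 difference was 0.94 (SE 0.48, 95% interval -0.34 to 2.23, limma adjusted p-value 0.812). Hey1 reached 1 FPKM in the JNK_KO lines and in neither JNK_WT line, so it could only pass the filter by being higher in JNK_KO cells. The difference was 0.51 without JNK_WT line 1, 0.56 without JNK_KO line 3, 1.33 without JNK_KO line 1, 1.38 without JNK_WT line 2 and 2.24 with a pseudocount of 0.1. Under quantile normalization it was 0.58 and the groups overlapped.

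Heyl (chromosome 4, 123233556 to 123249875, plus strand), the third repressor gene, was listed at 0 in both JNK_WT lines and at 0.00441 and 0.00314 FPKM in JNK_KO lines 1 and 3. These values correspond to an estimated 0.949 and 0.971 reads, which is about a single read in each library. No difference was detectable at this depth. Pericytes are a cell type in which Heyl and Notch3 are known to be expressed, and of their 7 markers 5 were under 1 FPKM in every line. The others were Pdgfrb, higher in JNK_KO lines (2.17 and 2.99 FPKM against 0.0404 and 0.194 FPKM), and Mcam, lower in JNK_KO lines (1.10 and 1.39 FPKM against 5.40 and 4.56 FPKM).

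**Figure D3:**
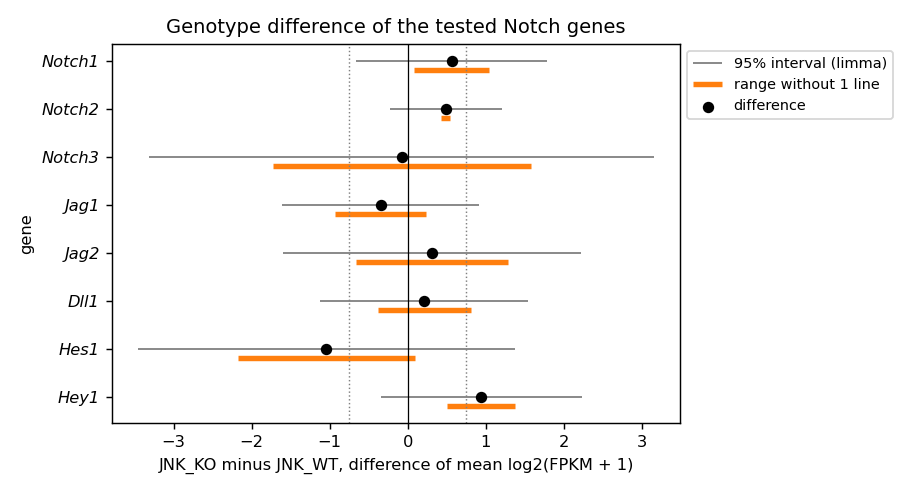
Difference in mean log2(FPKM + 1), JNK_KO minus JNK_WT, for the 8 tested Notch genes (black points), with the 95% interval from limma (grey) and the range of values when any 1 line was left out (orange), and dotted lines at differences of 0.75. Every interval includes 0, and only Notch1, Notch2 and Hey1 keep their direction when any line is left out. For Notch2 and Hey1 this was fixed in advance, since their groups do not overlap.

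Differences between lines of the same genotype were wide for these genes. Over the 8 tested genes the median absolute difference in log2(FPKM + 1) was 1.03 from JNK_WT line 1 to line 2 and 0.86 from JNK_KO line 1 to line 3, beside 0.43 and 0.33 over all genes tested. For 6 of the 8 genes, all but Notch2 and Hey1, the wider of these within-genotype gaps exceeded the difference between genotype means. This count was not made over all genes tested. Single lines vary more than means, so a gene without a genotype difference would often meet it, and it sets these genes apart from no others. That Hey1 did not meet it holds on the log2(FPKM + 1) scale, which compresses low values. Without the added 1, its JNK_WT lines differed by 23.9 times and its genotype means in FPKM by 3.85 times. JNK_WT line 1 had the lowest value for 5 of 8 genes (Notch1, Notch3, Jag2, Dll1 and Hey1), beside 29.0% of all genes tested. JNK_WT line 2 had the highest value for 4 of 8 (Notch3, Jag2, Dll1 and Hes1), beside 26.9%. The genes for which JNK_WT line 1 was lowest and JNK_WT line 2 highest were Notch3, Jag2 and Dll1 (3 of 8, beside 11.4% of all genes tested).

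Notch3 and Dll1 shared an order of the lines, from JNK_WT line 1 through JNK_KO line 1 and JNK_KO line 3 to JNK_WT line 2, which 6.49% of all genes tested followed. Of the 8 basal markers 4 had the same order (Krt5, Krt14, Trp63 and Cnn1) and 4 did not (Krt17, Acta2, Myh11 and Oxtr). Krt5 and Cnn1 reached 1 FPKM in JNK_WT line 2 only. The order was also that of 1 of the 8 luminal markers, Kit, at 0.0292, 0.403, 1.42 and 5.52 FPKM. Among the 8 endothelial markers 1 had it (Tie1, under 1 FPKM in every line), and no pericyte, fibroblast or leukocyte marker did. Krt14, a keratin of myoepithelial cells, was at 7.34, 26.7, 313 and 443 FPKM and Trp63, a basal transcription factor, at 0.0706, 1.16, 6.58 and 21.9 FPKM in that order of lines. The sum of the 8 basal markers followed it too, but without Krt14 it did not, at 18.8, 11.6, 63.1 and 291 FPKM. This order was noted after the values were seen, and the part of basal or luminal cells in the Notch values was not tested.

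The rest of the pathway was examined from a list of 57 genes by role, of which 46 were tested and 0 were called by limma. An unadjusted limma p-value under 0.05 was found for 2 of the 46, beside 7.63% of all genes tested. The median log2 difference of the 46 genes was -0.05. Groups did not overlap for 13 of them (28.3%, beside 35.0% of all genes tested), 6 higher and 7 lower in JNK_KO cells. Differences beyond 0.75 together with groups that did not overlap were found for 4 of the 46 genes, among them Neurl1a, Neurl1b and Dtx3l (12.1% of all genes tested met both).

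Among the 4 ubiquitin ligases that act on ligands, groups did not overlap for 2, both Neuralized genes, with higher values in JNK_KO cells. The share over all genes tested was 35.0% in either direction and 18.3% in this direction. Neurl1a was at 0.598 and 0.106 FPKM in JNK_WT lines and at 3.63 and 1.32 FPKM in JNK_KO lines, a log2 difference of 1.30 (SE 0.48, limma adjusted p-value 0.644). Like Hey1, it reached 1 FPKM in JNK_KO lines only. Neurl1b was at 0.665 and 1.48 FPKM against 5.01 and 3.43 FPKM, a log2 difference of 1.34 (SE 0.38, limma adjusted p-value 0.485). Mind bomb genes Mib1 and Mib2, which encode the other ligases of this group, differed by -0.01 and 0.03.

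Of the 9 tested genes for proteases of the receptor and their subunits, groups did not overlap for 3 (33.3%, beside 35.0% of all genes tested in either direction). All 3 had higher values in JNK_KO cells by at most 0.54, beside 18.3% of all genes tested in this direction. Adam10 was at 45.8 and 43.2 FPKM in JNK_WT lines and at 56.8 and 67.1 FPKM in JNK_KO lines, a log2 difference of 0.46 (SE 0.23, limma adjusted p-value 0.792). The Fringe genes, whose enzymes modify the receptors with sugars, did not separate the genotypes. Lfng was at 6.18 and 17.9 FPKM in JNK_WT lines, with both JNK_KO lines between them, and Rfng was at 4.15 and 11.2 FPKM against 6.97 and 6.54 FPKM. In both genes the JNK_WT lines were again the lowest and the highest, while Mfng was under 1 FPKM in all lines.

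In the nucleus, Rbpj was at 70.6 and 68.2 FPKM in JNK_WT lines and at 73.9 and 39.7 FPKM in JNK_KO lines 1 and 3, so JNK_KO line 3 alone was low. Its log2 difference was -0.35 with overlapping groups. Of the 10 corepressor genes, groups did not overlap for 4, all with lower values in JNK_KO cells (beside 35.0% of all genes tested in either direction and 16.7% in this direction).

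Among genes for receptor turnover, Dtx3l, a Deltex family ubiquitin ligase, was at 9.12 and 4.63 FPKM in JNK_WT lines and at 11.0 and 18.9 FPKM in JNK_KO lines, a log2 difference of 1.04 (SE 0.46, limma adjusted p-value 0.735). Of 8 further genes, listed as targets or as members of the Hes and Hey families, 2 were tested. Nrarp, a feedback inhibitor and Notch target, was at 21.1 and 33.8 FPKM in JNK_WT lines and at 34.4 and 14.4 FPKM in JNK_KO lines. Hes6, listed as a member of the Hes family, was at 17.2 and 34.7 FPKM against 12.0 and 29.8 FPKM. Whether Hes6 responds to Notch in these cells was not tested. The groups overlapped for both, and Hes6 had the order of lines seen for Hes1 (4.48% of all genes tested) while Nrarp did not. The ligand gene Dll4 reached 3.99 FPKM in JNK_KO line 3 and was at 0.102, 0.0665 and 0.311 FPKM in JNK_WT lines 1 and 2 and JNK_KO line 1, and it did not pass the filter.

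**Figure D4:**
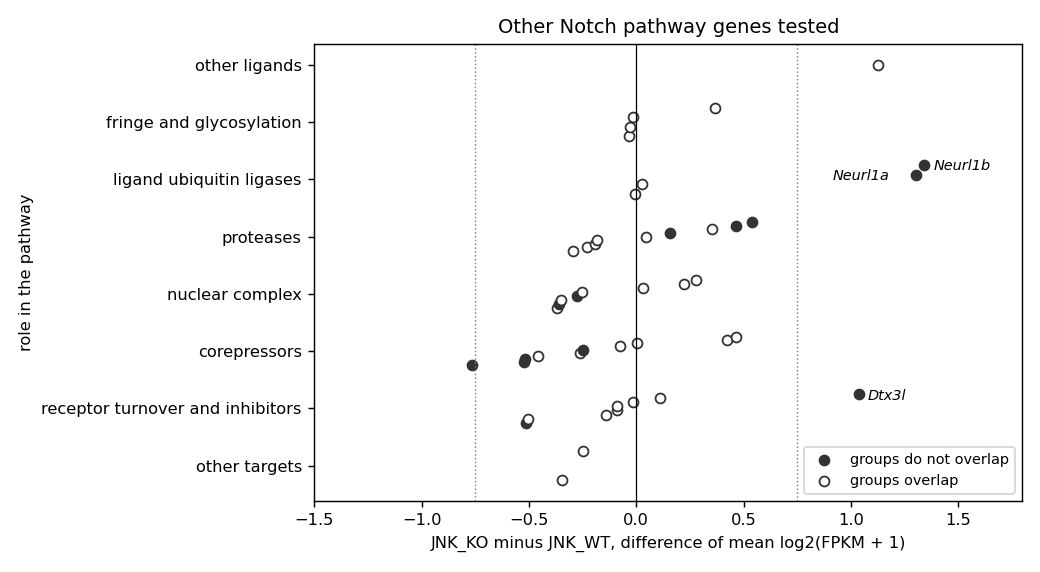
Difference in mean log2(FPKM + 1), JNK_KO minus JNK_WT, for the 46 tested genes of the wider Notch pathway, by role. Filled points are the 13 genes whose groups did not overlap, dotted lines mark differences of 0.75, and names are given for Neurl1a, Neurl1b and Dtx3l, which lie beyond the upper line.

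Some of these genes share exon sequence with other annotated genes, and strand was not given for these libraries, so reads of a gene and of a partner on the opposite strand cannot be told apart. The overlapping exons were 1068 bases for Notch1 with 0610009E02Rik, 414 bases for Notch1 with Gm13568, 488 bases for Notch3 with Gm17276 and 867 bases for Dll1 with A930024N18Rik, all on opposite strands. Notch2 shared 541 bases with Gm42820 on its own strand, which was not analysed here. A930024N18Rik was at 0.525 and 1.22 FPKM in JNK_WT lines and at 0.538 and 1.16 FPKM in JNK_KO lines, and the other partners were under 1 FPKM in every line.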

How the data were processed

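RNA from 4 tumor cell lines (2 JNK_WT and 2 JNK_KO, by sample title) was sequenced as single-end reads. The authors trimmed reads with Trimmomatic, sampled libraries with seqtk, aligned them to mm10 with TopHat2 2.0.14 and Bowtie2, and estimated expression with Cufflinks 2.2.1. The deposited values were FPKM for single libraries, and the gene annotation was not stated. Cufflinks divides by transcript length and shares out ambiguous reads, so values of overlapping genes can trade reads.

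Of 38741 rows, 27 with symbols turned into dates and 1 without a value were left out. Genes with at least 1 FPKM in at least 2 libraries were tested on log2(FPKM + 1), which understates changes of low genes, with limma 3.58.1 (two-sided, empirical Bayes, variance trend) in R 4.3.3, and p-values were adjusted over all 12998 of them by Benjamini-Hochberg. The script was tested on simulated data. Positions came from GENCODE M21 (GRCm38). Cuffdiff, the authors' test, needs alignments and was not run here. No count model was fitted to FPKM.

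Low FPKM values move in steps of a single read. Its size gave depths of 1.06 and 1.27 for JNK_WT lines 1 and 2 and 1.40 for JNK_KO line 3, relative to JNK_KO line 1. Estimated reads are FPKM times the merged exon length over that step, and overstate genes with many isoforms. No interval for counting error was computed. The labels number the lines but not the mice, so p-values rest on the spread between these lines. In limma, the variance of each gene is drawn toward that of genes of similar level, so a p-value does not measure the spread of that gene alone. No batch was given.

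The genes and lists were chosen with earlier results of these data known. All 10 genes are named, with pathway genes beyond a difference of 0.75 whose groups do not overlap and a few further pathway genes (Rbpj, Adam10, Lfng, Mfng, Rfng and Nrarp). Mib1, Mib2, Hes6, Dll4, the markers and the overlapping genes were named after their values were seen. Alternatives were pseudocounts of 0.1 and 0.5, other filters and scalings, limma without a trend or robust, other thresholds and fits without each line. Some genes under this rule are not reported here, and protein sequences were not used here. Python 3.11.15, pandas 2.3.3 and matplotlib 3.10.9 were used.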

Additional observations from a re-analysis of the deposited data

How the results depend on the processing

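No paired analysis was possible because just 1 replicate number occurs in both groups and nothing in the labels links those lines. The number of Notch genes called remained 0 of the genes tested under every alternative, as did that of the wider pathway. Over all genes, the count called by limma was 0 and became 10 and 14 with pseudocounts of 0.1 and 0.5, 15 with each library scaled to the same FPKM total, 14 without the intensity trend and 25 at an adjusted p-value threshold of 0.1. The smallest adjusted p-value was 0.0515 as reported, and the cause was not tested. The number of Notch genes whose groups did not overlap, 2, was 4 with no filter (where Notch4 and Heyl enter), 1 with a filter at a mean of 5 FPKM (where Hey1 leaves), 1 under quantile normalization (where the groups of Hey1 overlapped), and 4 to 6 without 1 line, where fewer lines separate more easily by construction. Of 70 values of single Notch genes under the 9 other settings, 68 kept their direction and 2 did not, which were those of Notch3 at 0.34 and 0.0716 with pseudocounts of 0.1 and 0.5. Leaving out 1 line reversed 6 of 32 values, in 5 genes. The ranges were -1.72 to 1.58 for Notch3, -0.94 to 0.24 for Jag1, -0.67 to 1.28 for Jag2, -0.38 to 0.81 for Dll1 and -2.18 to 0.10 for Hes1. A reversal was not possible for Notch2 and Hey1, whose groups did not overlap. In these fits the lone line of a genotype was assumed to vary like the other group. No scaling moved the median of all genes by more than 0.1. Estimated reads were fewest for Heyl, Hey1 and Notch4, and 2 lines per genotype leave wide intervals for every gene.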
